A study of Mus musculus with 20 samples.

Results

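The type 1 dendritic cell genes described here are Clec9a, Xcr1, Batf3, Irf8, Itgae, Cd8a, Tlr3, Wdfy4, Flt3 and Zbtb46, matched by gene symbol to 10 of the 56258 rows of the deposited gene table. RNA was measured by bulk polyA RNA sequencing of whole lymph nodes from Rag1-/- mice (B6.129S7-Rag1tm1Mom/J) aged 9 weeks, in which the recombinase for antigen receptor genes is disrupted and mature T and B cells are missing. The nodes drained the duodenum, the jejunum, the ileum or the cecum and colon (ceco-colonic), and the skin-draining inguinal node served as the non-gut reference. Each of the 5 positions had 4 libraries, so that 16 libraries came from gut-draining nodes, 12 of them small intestinal. All groups carried the same Rag1 disruption, no treatment was applied, and no Rag1-sufficient node was part of the comparison. The study asked how gut-draining nodes differ in their transcripts when adaptive lymphocytes are lacking.

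Conventional dendritic cells of type 1 take up material from dying cells and present it to CD8+ T cells on MHC class I, a route called cross-presentation. They arise from FLT3-dependent precursors under IRF8 and BATF3 and are recognised by the chemokine receptor XCR1 and the lectin receptor CLEC9A. In mouse lymph nodes they comprise a resident form, which carries CD8α, and a form that migrates in from the drained tissue, which carries CD103, the product of Itgae.

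The libraries held totals of 148.2 M to 304.6 M expected counts, and the lowest value of any of the 10 genes in any library was 2959 expected counts, for Cd8a. All 10 genes passed the filter on low counts. The defining genes Clec9a and Xcr1 were detected in every library, with at least 8219 and 4088 expected counts. Levels of a gene are given as CPM, its count relative to the library's total after scaling between libraries by the TMM method. Rag1 itself was counted at 1.98 to 3.43 CPM in every library, all of 1 genotype, so its level compares no genotypes. The T-cell marker Cd3e was low, with mean levels of 0.221 to 0.765 CPM over the 5 positions. Pancreatic acinar genes stood apart in duodenal libraries 1 and 2, with a summed level over 6 genes of up to 24650 CPM in duodenal nodes against at most 64.5 CPM in the other 16 libraries. Adipocyte genes also varied, between 65.3 and 1125 CPM over 5 genes. Nothing in the labels ties the 4 libraries of a node to different mice, and the p-values then measure only the spread between these libraries, which may be technical.

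On a scale that allows genes to be compared (TPM, which corrects for transcript length as well as depth), Irf8 was the most abundant of the 10 genes, with a mean of 403.6 TPM over the 20 libraries (SD 35.4). Batf3 followed with 195.7 TPM. Flt3, Wdfy4 and Clec9a averaged 83.1, 69.7 and 68.2 TPM. Zbtb46 averaged 27.5 TPM, Itgae 19.5 TPM, Cd8a 18.04 TPM, Tlr3 16.4 TPM and Xcr1 13.7 TPM. The abundant transcription factor gene Irf8 varied least, its highest library being 1.34 times its lowest in CPM. Cd8a spanned 4.07-fold, Clec9a 2.76-fold, Xcr1 2.62-fold and Itgae 2.09-fold. These 4 genes spanned a wider range than Batf3 (1.63-fold), Zbtb46 (1.38-fold), Flt3 (1.496-fold), Wdfy4 (1.71-fold) and Tlr3 (1.84-fold).

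Each promoter sequence from RefSeq (GRCm38.p6) ran from 250 bases before to 50 bases after the start listed for its gene. Such sequences were available for 9 of the 10 genes. Those of Clec9a and Cd8a are shown because these genes differed most between gut and inguinal nodes and in opposite directions, and that of Zbtb46 because it held a joint AP-1 and IRF motif of the kind bound by BATF and IRF factors. They lie at chr6:129408612-129408911 (+ strand) for Clec9a, chr6:71373177-71373476 (+ strand) for Cd8a and chr2:181424339-181424638 (− strand) for Zbtb46. Capitals mark motif matches: the ETS and IRF motif in Cd8a and the joint AP-1 and IRF motif in Zbtb46. Both motifs read on the opposite strand.
Clec9a: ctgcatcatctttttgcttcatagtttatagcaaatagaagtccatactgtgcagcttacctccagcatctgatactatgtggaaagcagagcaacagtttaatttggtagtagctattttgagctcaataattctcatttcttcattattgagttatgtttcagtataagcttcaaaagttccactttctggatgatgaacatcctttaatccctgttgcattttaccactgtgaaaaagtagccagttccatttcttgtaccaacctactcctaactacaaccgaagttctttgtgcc
Cd8a: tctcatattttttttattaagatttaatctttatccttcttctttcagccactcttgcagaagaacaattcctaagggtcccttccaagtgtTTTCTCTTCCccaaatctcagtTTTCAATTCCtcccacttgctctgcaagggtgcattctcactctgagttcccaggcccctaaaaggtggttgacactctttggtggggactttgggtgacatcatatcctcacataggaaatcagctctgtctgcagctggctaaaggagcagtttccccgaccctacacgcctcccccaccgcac
Zbtb46: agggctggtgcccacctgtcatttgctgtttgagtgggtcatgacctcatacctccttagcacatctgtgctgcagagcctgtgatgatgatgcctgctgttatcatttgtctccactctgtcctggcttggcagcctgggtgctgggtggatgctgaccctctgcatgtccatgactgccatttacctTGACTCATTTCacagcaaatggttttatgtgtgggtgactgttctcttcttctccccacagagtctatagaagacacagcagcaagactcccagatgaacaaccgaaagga

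All 4 motifs were searched on both strands of the 10 promoters listed for these 9 genes (Irf8 has 2) and of all 32851 promoters. The joint AP-1 and IRF motif, either GAAA directly followed by TGANTCA or TTTC and TGANTCA with 4 bases between them, was found in 80 promoters (0.244%), and in these 9 genes once, in Zbtb46, beginning 61 bases before the start. It overlaps the match of the AP-1 motif TGANTCA, which 7.81% of all promoters hold and which among these genes also occurred in Zbtb46 only. The ETS and IRF motif, GGAA and GAAA with 2 bases between them, was present in 2.72% of all promoters and lay in the Cd8a promoter at 2 places, 158 and 136 bases before the start. The interferon-stimulated response element, searched as GAAA and GAAA with 2 bases between them and present in 3.44% of all promoters, was not in these windows. A match of letters is a description of the sequence and not a binding site. Positions are counted from the listed starts, and whether transcription begins there was not checked.

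Gut-draining nodes held more Clec9a and less Cd8a than the inguinal node, and the other 8 genes differed less. Across the 29411 genes tested with edgeR's quasi-likelihood test, 26.3% were called between gut and inguinal nodes at a Benjamini-Hochberg adjusted p under 0.05, 13.4% higher and 12.9% lower. Of the 10 genes 4 were called: Clec9a and Batf3 rose, Cd8a and Xcr1 fell. Their median log2 fold change was 0.06, against 0.002 over all genes tested. In whole nodes, a smaller number of cells of a type and less RNA per cell cannot be told apart.

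**Figure D1:**
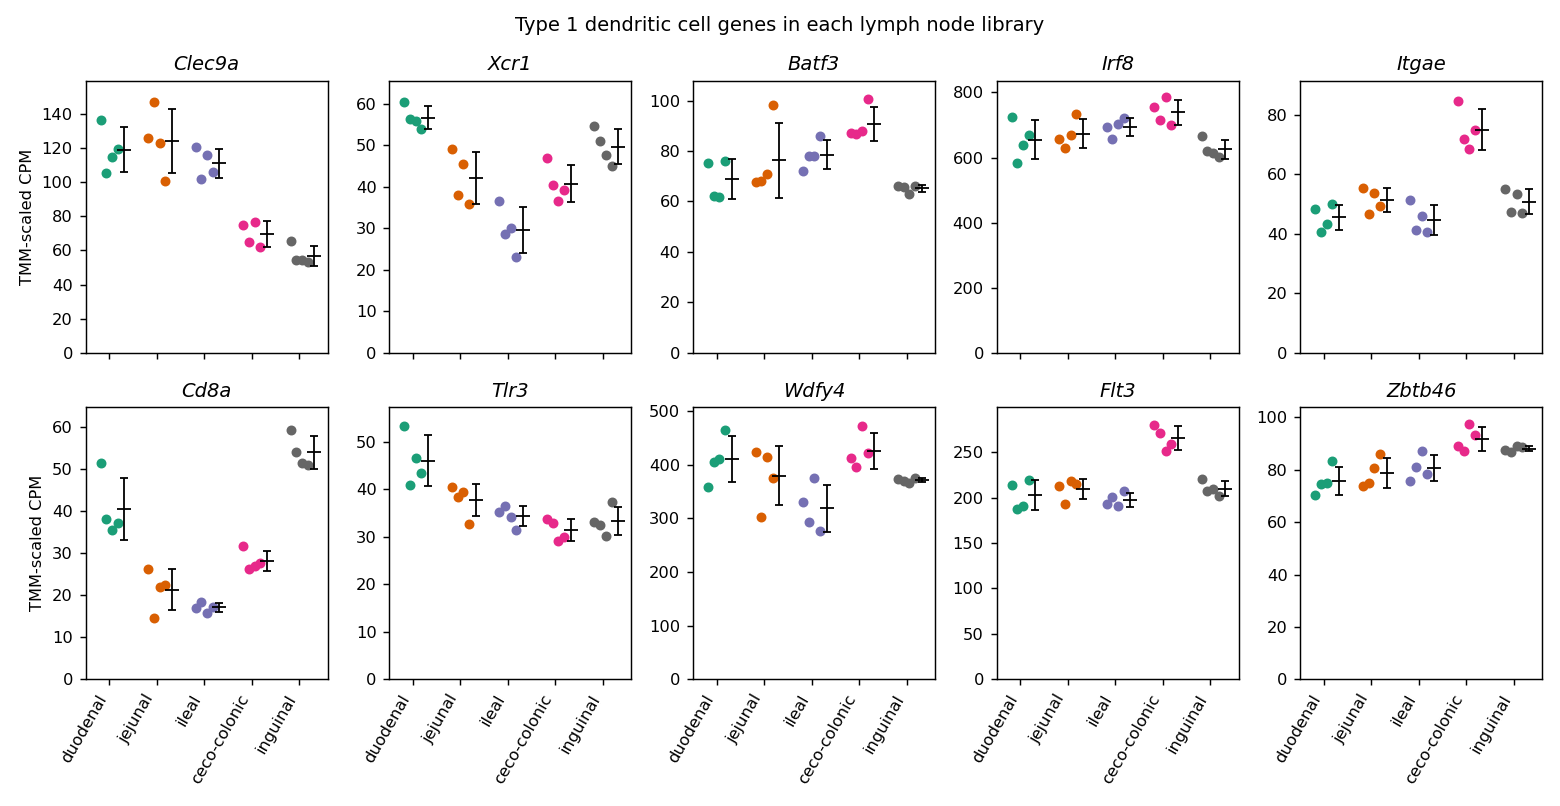
TMM-scaled CPM of each of the 10 genes in each library, by node position (4 libraries each, in order of library number from left to right), with the mean and SD as a black bar. Clec9a is high in the 12 small intestinal libraries (101 to 147 CPM), Itgae and Flt3 are high in the 4 ceco-colonic libraries, and Cd8a is highest in the inguinal libraries and lowest in the ileal ones.

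Among the receptors, Clec9a encodes DNGR-1, the lectin that senses actin filaments exposed by dead cells. Clec9a had 136, 106, 115 and 119 CPM in the duodenal libraries. The jejunal libraries had 126, 147, 123 and 101 CPM of Clec9a, and the ileal libraries had 120.5, 102, 116 and 106 CPM. In the ceco-colonic libraries Clec9a had 75.1, 65.1, 76.9 and 61.7 CPM, and in the inguinal libraries 65.6, 54.5, 54.6 and 53.1 CPM. All 12 small intestinal libraries therefore lay above all 8 others, while the ceco-colonic and inguinal ranges overlapped.

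Against the inguinal node, the log2 fold change of Clec9a was 1.06 ± 0.11 (SE) in the duodenal, 1.12 ± 0.11 in the jejunal and 0.96 ± 0.11 in the ileal node, about 1.95-fold to 2.18-fold higher, with edgeR adjusted p-values of 3.155e-07, 1.367e-07 and 9.903e-07. In the ceco-colonic node the value was 0.29 ± 0.11 and was not called (edgeR adjusted p = 0.0576). Small intestinal nodes exceeded the ceco-colonic node by 0.76 ± 0.09 on the log2 scale (edgeR adjusted p = 4.801e-06). Between duodenal, jejunal and ileal nodes the differences in Clec9a were at most 0.16 on the log2 scale and were not called.

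Xcr1 encodes the receptor for the chemokine XCL1, through which natural killer cells and CD8+ T cells attract these dendritic cells. Its levels followed another order than those of Clec9a. Xcr1 had 60.5, 56.5, 55.8 and 53.9 CPM in the duodenal libraries, 49.2, 38.0, 45.6 and 36.0 CPM in the jejunal ones and 36.6, 28.7, 30.1 and 23.1 CPM in the ileal ones. The ceco-colonic libraries held 47.0, 40.5, 36.5 and 39.3 CPM of Xcr1, against 54.8, 51.2, 47.6 and 45.0 CPM in the inguinal libraries. By position mean the order was duodenal, inguinal, jejunal, ceco-colonic and ileal; of these neighbours only the ceco-colonic and the ileal node differed in the test (edgeR adjusted p = 0.0119, and 0.0519 without ceco-colonic library 1, where the call was lost), and every neighbouring pair of ranges overlapped.

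The fall of Xcr1 in the ileal node against the inguinal node was −0.74 ± 0.12 on the log2 scale (0.597-fold, edgeR adjusted p = 7.585e-05), and the 2 ranges did not overlap. Duodenal nodes exceeded ileal nodes by 0.93 ± 0.12 (edgeR adjusted p = 0.0001132) and ceco-colonic nodes by 0.47 ± 0.12 (edgeR adjusted p = 0.00796). Over all gut nodes Xcr1 fell by 0.27 on the log2 scale against the inguinal node (SE 0.09, edgeR adjusted p = 0.0342). That call was lost without inguinal library 1, 2 or 3, with edgeR adjusted p-values of 0.141, 0.0939 and 0.0553. The duodenal and inguinal nodes had overlapping Xcr1 levels, and their difference was not called (edgeR adjusted p = 0.259).

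Tlr3, the endosomal sensor of double-stranded RNA, was highest in the duodenal node. Its libraries had 53.4, 41.0, 46.5 and 43.5 CPM there, against means of 37.8 ± 3.4 CPM in jejunal, 34.4 ± 2.1 CPM in ileal, 31.5 ± 2.2 CPM in ceco-colonic and 33.3 ± 3.0 CPM in inguinal nodes (SD, n = 4 each). In CPM all 4 duodenal libraries were above all 16 others, the nearest being jejunal library 1 with 40.5 CPM. In TPM duodenal library 2 (17.58 TPM) lay below jejunal libraries 2 and 3 (17.9 and 18.16 TPM) and inguinal library 4 (18.25 TPM). The duodenal level was higher than the inguinal level by 0.47 ± 0.09 on the log2 scale (edgeR adjusted p = 0.0003945) and higher than the ceco-colonic level by 0.55 ± 0.09 (edgeR adjusted p = 0.0001634). Its excess over the jejunal node, 0.29 ± 0.09, was not called (edgeR adjusted p = 0.077).

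Flt3, the receptor for the growth factor on which dendritic cell precursors depend, was higher in the ceco-colonic node than elsewhere. Its levels were 280.5, 271, 251.1 and 259.6 CPM in the ceco-colonic libraries. The other 16 libraries lay between 188 and 221 CPM, with no overlap. Flt3 was lower in small intestinal than in ceco-colonic nodes by −0.39 ± 0.05 on the log2 scale (edgeR adjusted p = 8.215e-06), and higher in ceco-colonic than in inguinal nodes by 0.34 ± 0.06 (edgeR adjusted p = 0.0003). In the duodenal, jejunal and ileal nodes the difference from the inguinal node was between −0.09 and −0.001 and was not called.

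Cd8a and Itgae, named above for the resident and the migratory form, moved differently from each other. In whole-node RNA they do not measure these forms, because other cells can also carry the transcripts. Cd8a, which encodes the CD8α chain, had 51.6, 38.1, 35.6 and 37.2 CPM in the duodenal libraries and 26.4, 14.6, 21.9 and 22.4 CPM in the jejunal ones. In ileal libraries Cd8a had 17.04, 18.4, 15.9 and 17.2 CPM, and in ceco-colonic libraries 31.6, 26.2, 26.9 and 27.7 CPM. The inguinal libraries had 59.4, 54.2, 51.5 and 50.9 CPM. In CPM only duodenal library 1 reached into the inguinal range. In TPM the duodenal libraries (20.2 to 23.3 TPM) lay below all inguinal ones (30.3 to 35.0 TPM).

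Against the inguinal node Cd8a fell by 1.66 ± 0.14 on the log2 scale in the ileal node (0.317-fold, edgeR adjusted p = 2.071e-08), by 1.34 ± 0.14 in the jejunal node (0.395-fold, edgeR adjusted p = 3.34e-07) and by 0.94 ± 0.14 in the ceco-colonic node (0.520-fold, edgeR adjusted p = 2.915e-05). In the duodenal node it fell by 0.41 ± 0.14 (0.752-fold, edgeR adjusted p = 0.0292), a call that was lost without inguinal library 1 or 2 or duodenal library 2, 3 or 4, with edgeR adjusted p-values between 0.0621 and 0.0916. The duodenal node held more Cd8a than the jejunal node by 0.93 ± 0.14 (edgeR adjusted p = 0.00268) and more than the ileal node by 1.25 ± 0.14 (edgeR adjusted p = 3.261e-05), without overlap in either case. The first of these calls was lost in a fit of only the duodenal and jejunal libraries (0.94, edgeR adjusted p = 0.168). From the highest mean to the lowest the order was inguinal, duodenal, ceco-colonic, jejunal and ileal; the ceco-colonic and jejunal nodes (edgeR adjusted p = 0.061) and the jejunal and ileal nodes (edgeR adjusted p = 0.874) were not separated by the test.

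T cells, another main source of Cd8a in a normal node, were represented by mean Cd3e levels of 0.545, 0.471, 0.306, 0.221 and 0.765 CPM in duodenal, jejunal, ileal, ceco-colonic and inguinal nodes. The summed level of the 9 T-cell genes was 43.6 to 66.2 CPM in gut libraries and 62.1 to 70.6 CPM in inguinal libraries. Cd8b1, the partner chain of CD8α in conventional CD8+ T cells, averaged 16.8 ± 4.8, 12.6 ± 2.6, 10.6 ± 1.4, 19.1 ± 3.6 and 11.2 ± 1.6 CPM in the same order of positions and was not called between gut and inguinal nodes (log2 fold change 0.36 ± 0.15, edgeR adjusted p = 0.084). Of the T-cell genes, Cd3e was called lower in gut than in inguinal nodes (log2 fold change −1.085 ± 0.175, edgeR adjusted p = 7.402e-05). Cd28 and Cd247 were also called lower, Cd6 and Themis were called higher, and Cd3d, Cd3g, Cd5 and Lat were not called. The share of other cell types in the Cd8a difference was not tested.

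Itgae encodes CD103, the integrin chain that binds E-cadherin. Itgae had 84.7, 71.8, 68.5 and 75.0 CPM in the ceco-colonic libraries, while the other 16 libraries lay between 40.5 and 55.3 CPM. By position its means were 45.6 ± 4.2 CPM in duodenal, 51.3 ± 3.9 CPM in jejunal, 44.7 ± 5.0 CPM in ileal, 75.0 ± 7.0 CPM in ceco-colonic and 50.8 ± 4.1 CPM in inguinal nodes (SD, n = 4 each). Small intestinal nodes were 0.628-fold the ceco-colonic level (log2 fold change −0.67 ± 0.07, edgeR adjusted p = 8.714e-07), and the ceco-colonic node was 1.48-fold the inguinal level (0.56 ± 0.09, edgeR adjusted p = 8.443e-05). None of the duodenal, jejunal and ileal nodes was called against the inguinal node for Itgae by edgeR, with log2 fold changes between −0.18 and 0.01 and the lowest unadjusted p at 0.0521.

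Within a library, the ratio of Cd8a to Itgae in TPM was 1.36 ± 0.22 in duodenal, 0.631 ± 0.112 in jejunal, 0.592 ± 0.087 in ileal, 0.573 ± 0.018 in ceco-colonic and 1.63 ± 0.11 in inguinal nodes (SD, n = 4 each). Summed over all transcripts, the jejunal, ileal and ceco-colonic libraries therefore had less Cd8a than Itgae, and the duodenal and inguinal ones more. The retained-intron transcript Cd8a-203 took a mean of 43.8% of Cd8a TPM in gut and 42.7% in inguinal libraries. The retained-intron transcript Itgae-202 took 10.2% and 14.9% of Itgae TPM. The side of 1 thus depends on counting these transcripts, and a ratio of coding transcripts alone was not computed. The ratio of Clec9a to Xcr1 was 4.80 ± 0.40, 6.82 ± 1.37, 8.73 ± 1.26, 3.94 ± 0.59 and 2.63 ± 0.14 in the same order of positions. These ratios are given as levels with no test.

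**Figure D2:**
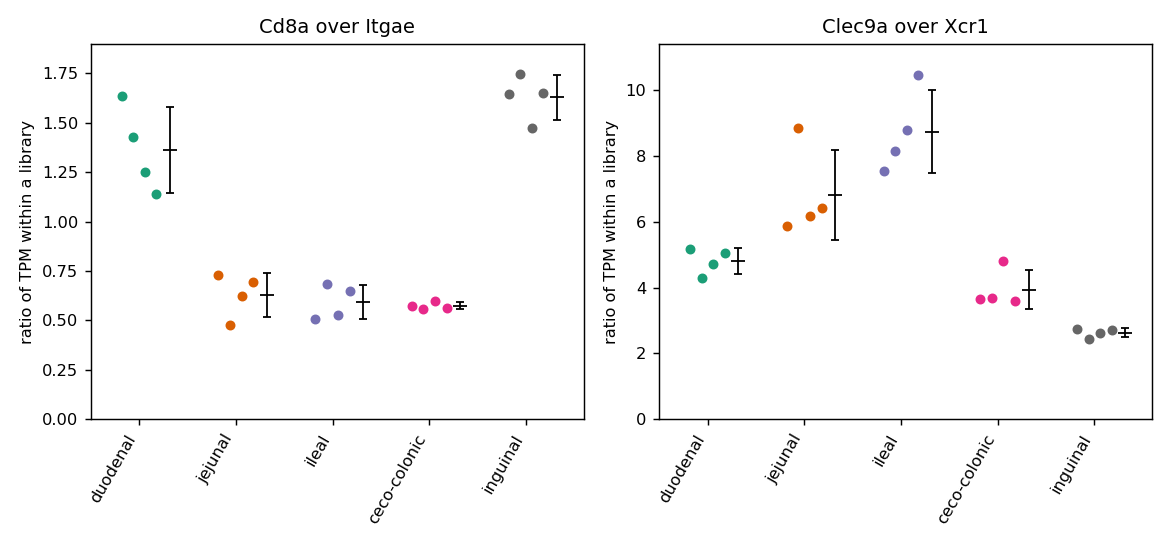
Ratio of TPM of 2 genes within each library (Cd8a over Itgae, left, and Clec9a over Xcr1, right) by node position, with the mean and SD of 4 libraries as a black bar. TPM are summed over all transcripts of a gene, retained-intron ones included. The Cd8a to Itgae ratio lies above 1 in all duodenal and inguinal libraries and below 1 in the others; the Clec9a to Xcr1 ratio is lowest in the inguinal and highest in the ileal libraries by mean.

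The transcription factor genes differed by smaller factors. Batf3, which sustains Irf8 expression in this lineage, averaged 68.8 ± 7.9 CPM in duodenal, 76.2 ± 14.7 CPM in jejunal, 78.6 ± 5.7 CPM in ileal, 90.6 ± 6.7 CPM in ceco-colonic and 65.2 ± 1.5 CPM in inguinal nodes (SD, n = 4 each). Its rise over all gut nodes was 0.26 ± 0.08 on the log2 scale (edgeR adjusted p = 0.022), and the call was lost when any 1 inguinal library was left out, with edgeR adjusted p-values from 0.0552 to 0.0847. In the ceco-colonic node alone Batf3 rose by 0.47 ± 0.10 (edgeR adjusted p = 0.00185), and its 4 libraries (86.8 to 101 CPM) were above all inguinal ones (62.9 to 66.0 CPM). The lower level in small intestinal than in ceco-colonic nodes, −0.28 ± 0.08 (edgeR adjusted p = 0.0207), was not called without ceco-colonic library 4 (edgeR adjusted p = 0.129).

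Irf8, whose product sets the fate of type 1 and plasmacytoid dendritic cells, averaged 655 ± 59 CPM in duodenal, 673 ± 44 CPM in jejunal, 693 ± 27 CPM in ileal, 739 ± 39 CPM in ceco-colonic and 625 ± 28 CPM in inguinal nodes (SD, n = 4 each). The ceco-colonic node was higher than the inguinal node by 0.24 ± 0.07 on the log2 scale (edgeR adjusted p = 0.0106), a call lost without ceco-colonic library 3 or inguinal library 4 (edgeR adjusted p = 0.0535 and 0.054). Over all gut nodes the difference was 0.14 ± 0.05 and was not called (edgeR adjusted p = 0.0513); DESeq2 and limma-voom called it, with adjusted p-values of 0.0444 and 0.0412. edgeR also called it with library number as a replicate block (adjusted p = 0.0317), without duodenal libraries 1 and 2 together (0.0282) and in 4 of 20 runs that left out 1 library (duodenal 1, duodenal 2, jejunal 2 or inguinal 1, 0.0294 to 0.0458). Irf8 was the 1 gene of the 10 with no call among the 4 gut positions (edgeR adjusted p = 0.203).

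Zbtb46, a factor that marks conventional dendritic cells and their precursors, averaged 75.9 ± 5.3, 78.8 ± 5.7, 80.6 ± 5.0, 91.8 ± 4.6 and 88.1 ± 1.1 CPM in duodenal, jejunal, ileal, ceco-colonic and inguinal nodes (SD, n = 4 each). Small intestinal nodes were lower than the ceco-colonic node by −0.23 ± 0.05 on the log2 scale (edgeR adjusted p = 0.00264). The duodenal node was lower than the inguinal node by −0.22 ± 0.06 (edgeR adjusted p = 0.0131). This call was lost with counts summed from transcripts (−0.087, edgeR adjusted p = 0.206). It was also lost without the 2 duodenal libraries that held acinar transcripts (−0.154, edgeR adjusted p = 0.175), a run with fewer duodenal libraries.

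Wdfy4, needed in mice for cross-presentation of cell-associated antigen, averaged 409 ± 43, 379 ± 55, 319 ± 44, 425.5 ± 33.1 and 371 ± 4 CPM in the same order of positions. No gut position was called for Wdfy4 against the inguinal node by edgeR; the ileal node came nearest, at −0.22 ± 0.10 on the log2 scale with an unadjusted p of 0.0474. The ileal level was lower than the ceco-colonic level by −0.42 ± 0.10 (edgeR adjusted p = 0.00963), and the 4 libraries of each did not overlap. The duodenal node exceeded the ileal node by 0.36 ± 0.10 (edgeR adjusted p = 0.0244), a call lost without ileal library 2 or 4 or duodenal library 4 (edgeR adjusted p = 0.0617 to 0.083) and in a fit of only these 2 positions (0.0643).

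**Figure D3:**
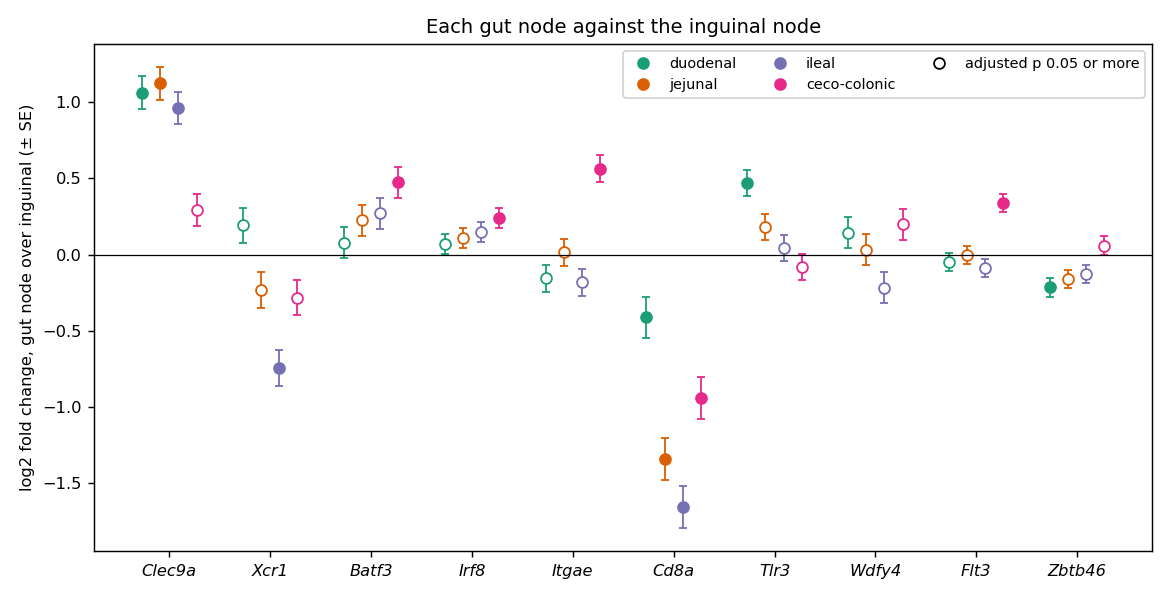
Log2 fold change (with SE) of each gene in each gut node against the inguinal node, from the fit of all 20 libraries; filled points have an adjusted p under 0.05. Clec9a is raised in the 3 small intestinal nodes, Cd8a is lowered in all 4 gut nodes, and Itgae and Flt3 are raised in the ceco-colonic node alone among the called points.

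Position by position, the 10 genes gave 4 calls in the duodenal node against the inguinal node, where 25.3% of all genes tested were called (13.2% higher, 12.1% lower). They gave 2 calls in the jejunal node, 1 higher and 1 lower, against 20.9% of all genes (11.4% higher, 9.54% lower). In the ileal node 1 was higher and 2 were lower, against 22.6% of all genes (12.5% higher, 10.1% lower), and in the ceco-colonic node 4 were higher and 1 was lower, against 21% (10.6% higher, 10.3% lower). These 4 comparisons share the inguinal libraries. The small intestinal nodes differed from the ceco-colonic node for 6 of the 10 genes, against 16.6% of all genes tested, with Clec9a and Tlr3 higher (8.9% of all genes were) and Itgae, Flt3, Zbtb46 and Batf3 lower (7.74% were). Their median log2 fold change was −0.20, against 0.006 over all genes. A test of any difference among the 4 gut positions called 9 of the 10, against 21.3% of all genes tested. The Batf3 call in that test was lost in 16 of 20 runs that left out 1 library, with an edgeR adjusted p of up to 0.163 without ceco-colonic library 4. The Wdfy4 call was lost without ileal library 2 or 4 (edgeR adjusted p = 0.0786 and 0.0896) and in a fit of only the gut libraries (0.0519), and the Zbtb46 call without ceco-colonic library 3 (0.0585).

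Pairs of gut positions divided these genes further. Duodenal and ceco-colonic nodes differed for 8 of the 10 (16.4% of all genes; 8.24% higher, 8.17% lower), with Clec9a, Tlr3, Cd8a and Xcr1 higher in the duodenal node and Itgae, Flt3, Zbtb46 and Batf3 lower. Without duodenal libraries 1 and 2 together, the calls of Cd8a, Xcr1, Batf3 and Zbtb46 were lost and 4 were left. Their log2 fold changes were then 0.372, 0.426, −0.396 and −0.215, against 0.531, 0.474, −0.397 and −0.275 with all libraries. That run also had fewer duodenal libraries, and the part of acinar transcripts in the lost calls was not tested. The Batf3 call was also lost without duodenal library 2 (edgeR adjusted p = 0.0528) or ceco-colonic library 4 (0.0526) alone. Ileal and ceco-colonic nodes differed for 7 (12.8% of all genes; 7.43% higher, 5.32% lower), with Clec9a higher and Itgae, Flt3, Wdfy4, Cd8a, Xcr1 and Zbtb46 lower in the ileal node. The Zbtb46 call there (edgeR adjusted p = 0.0495) was lost in 13 of 20 runs that left out 1 library, with no filter on low counts (0.0836) and in a fit of only these 2 positions (0.0512). Jejunal and ceco-colonic nodes differed for 4 (12.2% of all genes; 7.14% higher, 5.06% lower), with Clec9a higher and Itgae, Flt3 and Zbtb46 lower in the jejunal node. This Zbtb46 call (edgeR adjusted p = 0.0211) was lost without jejunal library 1 or 2 or ceco-colonic library 3 or 4 (0.0623 to 0.0809) and in a fit of only these 2 positions (0.0548). Tlr3, Wdfy4, Cd8a and Xcr1 were higher in duodenal than in ileal nodes (14.6% of all genes; 6.58% higher, 8.03% lower). Duodenal and jejunal nodes differed for 1, Cd8a, which was higher in the duodenal node (2.83% of all genes; 1.29% higher, 1.54% lower). Between jejunal and ileal nodes edgeR called 0 of the 10 genes and 0.068% of all genes (0.0204% higher, 0.0476% lower); 4 of the 10 had an unadjusted p under 0.05, DESeq2 called 1 and limma-voom called 0.

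Other genes known from type 1 dendritic cells did not follow one direction either. Of 20 such genes, 5 rose and 8 fell in gut nodes against the inguinal node, with a median log2 fold change of −0.19. Over all genes tested, 13.4% rose and 12.9% fell. Cd207, which encodes langerin and is carried in skin-draining nodes by migratory dermal type 1 cells and by Langerhans cells, averaged 0.840, 0.376, 0.154 and 0.392 CPM in duodenal, jejunal, ileal and ceco-colonic nodes, against 9.43 CPM in inguinal nodes. Its log2 fold change over all gut nodes was −4.65 ± 0.27 (edgeR adjusted p = 4.938e-11). Septin3 fell by 1.20 ± 0.11 (edgeR adjusted p = 4.389e-08) and Fkbp1b by 0.68 ± 0.08 (edgeR adjusted p = 7.047e-07). Against the ceco-colonic node, 7 of the 20 were called in small intestinal nodes, each of them lower, with a median of −0.16. Of all genes tested, 7.74% were lower there.

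The ceco-colonic libraries with high Itgae and Flt3 also stood out in other genes of the pathway. Il12b, which encodes the p40 chain of interleukin-12, averaged 31.4 ± 6.0, 28.4 ± 5.0, 27.2 ± 3.5, 108 ± 17 and 48.9 ± 7.8 CPM in duodenal, jejunal, ileal, ceco-colonic and inguinal nodes (SD, n = 4 each). It was lower in small intestinal than in ceco-colonic nodes by −1.89 ± 0.11 on the log2 scale (edgeR adjusted p = 5.313e-10), and the ceco-colonic libraries (86.3 to 123.9 CPM) lay above all others. Flt3l, the ligand of FLT3, ran the other way and was higher in small intestinal than in ceco-colonic nodes by 0.43 ± 0.06 (edgeR adjusted p = 2.25e-05), with means of 96.5, 92.4, 93.0, 69.8 and 95.8 CPM in the same order of positions. Ly75, the endocytic receptor DEC-205, averaged 74.7, 73.2, 72.1, 125.5 and 99.8 CPM and was lower in small intestinal than in ceco-colonic nodes by −0.78 ± 0.05 (edgeR adjusted p = 3.567e-09). Il12b, Flt3l and Ly75 were singled out from their lists after their values were seen.

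Of the 12 genes for ligands, partners and outputs, 1 rose (Flt3l) and 6 fell in small intestinal against ceco-colonic nodes, and 2 rose and 2 fell in gut against inguinal nodes. Over all genes tested, 8.9% rose and 7.74% fell in the first comparison, and 13.4% and 12.9% in the second. Those that rose in gut nodes were Cdh1, the E-cadherin ligand of CD103 (0.64 ± 0.10 on the log2 scale, edgeR adjusted p = 3.911e-05), and Csf2, which encodes GM-CSF (0.81 ± 0.15, edgeR adjusted p = 0.0002401). Those that fell were Itgb7, the β7 chain that pairs with CD103 (−0.36 ± 0.07, edgeR adjusted p = 0.0003234), and Ticam1, the adaptor TRIF that signals below TLR3 (−0.33 ± 0.05, edgeR adjusted p = 3.142e-05). Xcl1, the ligand of XCR1, averaged between 35.8 and 43.4 CPM over the 5 positions and was not called (edgeR adjusted p = 0.207 between gut and inguinal nodes).

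Of 13 cross-presentation and class I genes, 7 rose in gut nodes against the inguinal node and 6 were not called, with a median of 0.18. Over all genes tested, 13.4% rose and 12.9% fell in this comparison. Tapbp, which encodes tapasin, rose by 0.39 ± 0.07 on the log2 scale (edgeR adjusted p = 0.0001281), and Tap2, a subunit of the peptide transporter, by 0.31 ± 0.06 (edgeR adjusted p = 0.0008309). Of the interferon response genes 10 of 10 rose, with a median of 0.95, and a link to the class I genes was not tested. Of 12 genes of mature migratory dendritic cells, 7 rose and 2 fell, with a median of 0.35. Il4i1, an amino acid oxidase of mature dendritic cells, averaged 616, 741, 830.5 and 776 CPM in duodenal, jejunal, ileal and ceco-colonic nodes and 344 CPM in inguinal nodes (1.10 ± 0.11 on the log2 scale, edgeR adjusted p = 1.967e-07). Cd274, which encodes PD-L1, and the maturation marker Cd83 rose by 0.64 ± 0.06 and 0.58 ± 0.05 (edgeR adjusted p = 6.2e-08 and 5.322e-08).

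Other dendritic cells share some of the 10 genes, so their markers are given beside them. Over all genes tested, 13.4% rose and 12.9% fell in gut against inguinal nodes. Of 8 genes shared by conventional dendritic cells, 4 rose in gut nodes and 4 were not called, and Dpp4, which encodes CD26, rose by 1.25 ± 0.09 (edgeR adjusted p = 3.099e-09). Itgax, Kmo, Btla, Ciita and H2-DMb2 of this list were called lower in small intestinal than in ceco-colonic nodes, as Itgae and Flt3 were. Dpp4, Jaml and H2-Ab1 were not called there. Of all genes tested, 7.74% were lower in that comparison. Of 10 type 2 dendritic cell genes, 1 rose and 7 fell, with a median of −0.55. Their summed level was 743 to 1027 CPM in gut libraries and 1082 to 1191 CPM in inguinal libraries. It was also higher in the ceco-colonic (937 to 1027 CPM) than in the small intestinal libraries (743 to 886 CPM), as Itgae and Flt3 were. Of these genes Irf4, Sirpa, Clec10a, Mgl2 and Clec12a were called lower in small intestinal than in ceco-colonic nodes, and the others were not called. Of 11 plasmacytoid dendritic cell genes, whose cells also use Irf8 and Flt3, 3 rose and 4 fell in gut nodes. Their sums overlapped between ceco-colonic (1022 to 1182 CPM) and small intestinal libraries (1010 to 1543 CPM). Natural killer cells make XCL1; of 10 of their genes, 7 fell in gut nodes and 3 were not called. The part of these cell types in the results was not tested.

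Across the 20 libraries the 10 genes did not vary as one block. Of their 45 pairs, 13 had a Pearson correlation of log2 CPM above 0.5 and 17 were below 0, with a median of 0.122. After position means were subtracted, 7 were above 0.5 and 15 below 0, with a median of 0.229. Itgae and Flt3 correlated at 0.923 over all libraries and 0.543 within positions, and Batf3 and Irf8 at 0.809 and 0.574. Xcr1 and Itgae correlated weakly over all libraries, at 0.122, and at 0.739 within positions. Clec9a and Xcr1, the defining receptors, gave −0.101 over all libraries and 0.407 within positions. These are descriptions over 20 libraries that share position, depth and scaling.

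**Figure D4:**
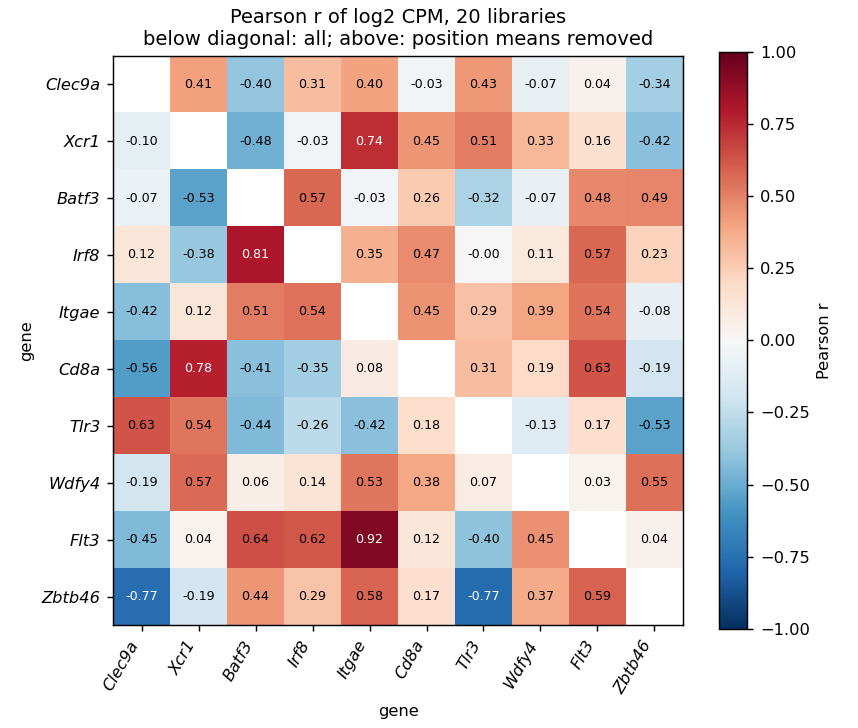
Pearson correlation of log2 CPM between the 10 genes over 20 libraries, below the diagonal for all libraries and above it after the mean of each position was subtracted. The Itgae and Flt3 pair is highest below the diagonal (0.92) and the Xcr1 and Itgae pair is highest above it (0.74), while Clec9a and Zbtb46 (−0.77) run in opposite directions.

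Among 11626 genes with a mean of at least 5 CPM, the 3 whose log2 CPM followed that of Clec9a most closely over the 20 libraries were Peg3 (r = 0.958), Gpc3 (0.957) and Neb (0.945). Peg3 averaged 27.9, 30.9, 25.4, 9.31 and 6.72 CPM in duodenal, jejunal, ileal, ceco-colonic and inguinal nodes, with the same break between small intestinal and other nodes. Within positions the nearest genes were Nfxl1 (0.882), Hk2 (0.853) and Eepd1 (0.812). For Xcr1 the nearest genes over all libraries were Cyyr1 (0.899), Mycl (0.894), which encodes the L-MYC factor of this lineage and was among the 20 other type 1 genes, and Cd34 (0.894). Mycl averaged 54.1, 43.0, 32.5, 48.0 and 45.4 CPM in the same order of positions, lowest in the ileal node as Xcr1 was. Within positions Mir223hg (0.963), H2-Ob (0.924) and Haspin (0.907) came nearest to Xcr1.

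The transcript tables hold 42 transcripts of the 10 genes. For 22 of them, with a mean share of 10% to 90% of their gene's TPM, the share was compared between gut and inguinal libraries by a two-sided exact permutation test adjusted over the 22, and 5 were called. The same test was not run on transcripts of other genes, so this count has no background to be read against. Clec9a-204, a short coding transcript model of 446 bases, made up 16.4% ± 2.4 of Clec9a in gut libraries (SD, n = 16) and 22.9% ± 2.0 in inguinal libraries (SD, n = 4). The difference was −6.54 percentage points (exact permutation p = 0.0004128, the smallest this test can give, adjusted p = 0.00605). The gut libraries ranged from 12.8% to 21.22% and the inguinal libraries from 21.24% to 25.6%, adjoining but not overlapping. Clec9a-202, of 1020 bases, ran the other way, with 23.6% ± 3.1 in gut and 18.9% ± 2.7 in inguinal libraries (exact permutation, adjusted p = 0.0472).

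For Itgae, the retained-intron transcript Itgae-202 took 10.2% ± 2.1 of the gene's TPM in gut libraries (SD, n = 16) and 14.9% ± 1.3 in inguinal libraries (SD, n = 4; exact permutation p = 0.0008256, adjusted p = 0.00605). The coding transcript Itgae-201 took the rest and is the mirror image of that call. The fifth call was Batf3-203, a transcript model without a coding sequence, with 12.1% ± 2.1 in gut and 14.9% ± 1.6 in inguinal libraries (exact permutation, adjusted p = 0.0472). The calls of Clec9a-202 and Batf3-203 were lost in 15 and 14 of 20 runs that left out 1 library, with adjusted p-values of up to 0.236 and 0.209. These shares rest on how reads common to several transcripts were divided between them.

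**Figure D5:**
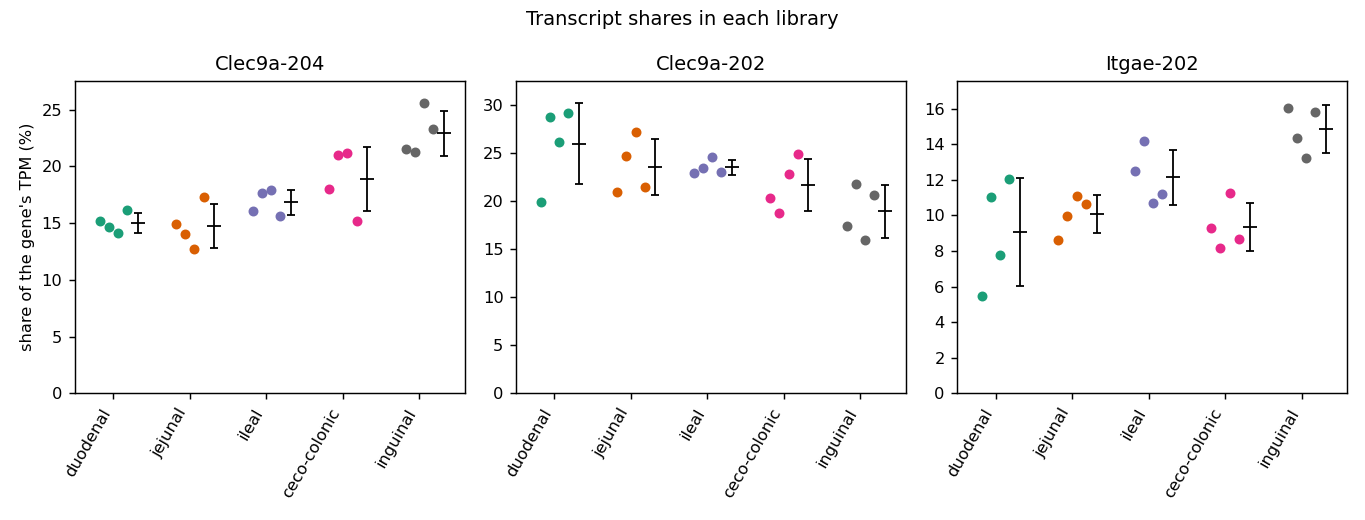
Share of the gene's TPM (percent) taken by Clec9a-204, Clec9a-202 and Itgae-202 in each library, by node position, with the mean and SD of 4 libraries as a black bar. The inguinal libraries lie at or above 21.24% for Clec9a-204, above all gut libraries, and between 13.2% and 16.1% for Itgae-202.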

How the data were processed

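Whole lymph node RNA was extracted with the PicoPure kit and polyA libraries were made with an NEBNext kit, per the labels' protocols. The authors deposited a table of expected counts per gene and, for each library, a table of estimated counts and TPM per transcript. kallisto, limma, edgeR and the builds GRCm39 and mm10 are named in the submitters' processing notes. Neither versions nor roles are given in the sources used here. No column was left unassigned (0 of no library).

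Expected counts were rounded, filtered (filterByExpr, minimum count 10) and scaled by TMM in edgeR 4.0.16 (R 4.3.3). One quasi-likelihood fit held all 20 libraries with 1 mean per position. P-values were adjusted over all 29411 genes tested and called under 0.05, and the script was tested on simulated data. CPM are TMM-scaled, with a prior count of 2 on the log2 scale. TPM were summed over a gene's transcripts. limma 3.58.1, DESeq2 1.42.0, other filters and scalings, and left-out libraries were alternatives. Python 3.11.15 and scipy 1.17.1 gave permutation tests.

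The members and the 16 other lists (158 genes) were chosen with earlier results of these data known. All 10 members are named; of each other list up to 3 called genes with the smallest p could be named, and those of most lists of other cell types are left out for length. Promoters came from RefSeq (GRCm38.p6) and were matched by symbol.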

Additional observations from a re-analysis of the deposited data

Results flagged for a closer look

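In 50 groups of 4 libraries (10 genes at 5 positions), 5 held a library whose gap to its nearest neighbour took up more of the group's range than Dixon's 95% limit; chance gives about 1 in 20. Clec9a was high in inguinal library 1, at 65.6 CPM. Batf3 was high in jejunal library 4, at 98.3 CPM, and in ceco-colonic library 4, at 100.6 CPM, and low in inguinal library 3, at 62.9 CPM. Cd8a was high in duodenal library 1, at 51.6 CPM, which also held pancreatic acinar transcripts.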

How the results depend on the processing

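Of 3220 values of 118 single results under the alternatives, 3082 kept their direction and their side of the threshold, 107 lost their call, 23 gained one and 8 turned round. Those 8 belong to runs without 1 library, over which the log2 fold change of Fabp4 between gut and inguinal nodes ranged from −0.183 to 1.121 and that of Xcr1 between small intestinal and ceco-colonic nodes from −0.022 to 0.099.

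The replicate block (library number as a term) gave 4 of the 10 genes in the jejunal and 5 in the ileal node against the inguinal node. It gave 3 between duodenal and jejunal, 1 between jejunal and ileal and 7 between jejunal and ceco-colonic nodes. Over all genes the block gave 1597 calls between duodenal and jejunal nodes (831 without it) and 38 between jejunal and ileal nodes (20 without it). For the other comparisons its count over all genes is not given, so the counts of the 10 have no background there. Pairing by number was not established: 40 same-number pairs correlated at −0.086 to 0.357 (median 0.075, against −0.021 for other pairs), 13 of them above 0.1; 12 of 20 libraries correlated best with their own number, a hint from the data and not from the design.

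DESeq2 gave 3 of the 10 genes and 1716 genes between duodenal and jejunal nodes, and 1 and 90 between jejunal and ileal nodes. limma-voom gave 513 genes between duodenal and jejunal nodes, 34.7% of them higher against 45.5% in edgeR. Counts summed from transcripts gave 2 of the 10 there. A fit of only the groups compared gave 5 of the 10 in the ileal and 8 in the ceco-colonic node against the inguinal node, 0 of the 10 and 0 genes between duodenal and jejunal nodes, 2571 and 3113 genes for duodenal against ileal and ceco-colonic nodes, and 2 genes between jejunal and ileal nodes. Without duodenal libraries 1 and 2, duodenal nodes gave 113, 1267 and 3036 genes against jejunal, ileal and ceco-colonic nodes and 4 of the 10 against ceco-colonic nodes. Shares of estimated counts, or limits of 5% to 95%, gave 3 transcript calls each. The cause of these shifts was not tested. Where the count over all genes is not given for a setting, its count of the 10 genes has no background beside it.

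Leaving out 1 library at a time gave 2 to 5 of the 10 genes between gut and inguinal nodes (2 without inguinal library 2 or 3), 1 to 2 between duodenal and jejunal nodes (2 without jejunal library 1 or ileal library 1 or 4) and 3 to 6 transcript calls. Over all genes it gave 6314 to 8152 between gut and inguinal nodes and 207 to 1175 between duodenal and jejunal nodes (lowest without duodenal library 2). It gave 2306 to 4732 between duodenal and ileal nodes, and 7 to 25 between jejunal and ileal nodes.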

Other observations

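Some of the 10 genes ordered the libraries by their number in the same way at several positions, although the labels attach no meaning to that number. In CPM, Xcr1 was highest in library 1 at 5 of 5 positions and lowest in library 4 at 4 of them. In TPM, duodenal library 1 instead had the lowest Xcr1 of its position, at 15.32 TPM against 16.78, 18.44 and 16.87 TPM. Batf3 was highest in library 4 at 5 of 5 positions. Itgae and Cd8a were each highest in CPM in library 1 at 4 of 5 positions. In TPM the highest jejunal Itgae was in library 3 (20.05 TPM, against 19.28 TPM in library 1). These counts were made after the values were seen and have no test.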
